A study of Mus musculus with 4 samples.

Results

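The genes described here belong to the Nodal signalling pathway, which sets the left-right axis of the embryo. They are the secreted Nodal antagonist Lefty2, its paralog Lefty1, the ligand Nodal and the co-receptors Cfc1 (Cryptic) and Tdgf1 (Cripto). Of these 5 genes, 3 were among the 15803 genes with values: Lefty2, Tdgf1 and Cfc1. Lefty1 and Nodal have no row in the table used and were not analysed here, and why they have none is not known. The group was chosen from these same libraries, because Lefty2 was lower by more than other well counted genes, so the differences of its members between genotypes are given as a description, and nothing is read from a test of them. RNA-seq had been performed on the second heart field (SHF) region, which holds the cardiac progenitor cells of the splanchnic mesoderm, microdissected from embryos at E8.5 (embryonic day 8.5). Of 4 libraries, 2 came from Hoxb1 mutant embryos (genotype Hoxb1Mu) and 2 from wild-type embryos (genotype WT), with no treatment in either. The methods of the study write the mutant as Hoxb1-/- and tie the name Hoxb1- to the alleles Hoxb1GFP and Hoxb1IRES-Cre, without saying which of these the E8.5 embryos carried. Per the same methods, each library held RNA pooled from embryos of 1 genotype.

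Nodal is a TGF-beta family ligand. At early somite stages it spreads through the left lateral plate mesoderm, where it binds activin receptors together with an EGF-CFC co-receptor (Cfc1 or Tdgf1) and, through Smad2 and Foxh1, switches on its own gene and Lefty2. Lefty2, made in the left lateral plate, and Lefty1, made mainly in the left floor plate, are secreted proteins that bind Nodal or its co-receptors and limit how far and how long the signal runs. Left-sided Nodal signalling is known to be transient, and mice without Lefty2 or Cfc1 have defects of left-right patterning that include the heart.

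Lefty2 (ENSMUSG00000066652; chr1:180893108-180899103, plus strand, mm10, GENCODE vM21) and Lefty1 (plus strand, starting 35.9 kb beyond the end of Lefty2) are similar genes of 4 exons each. Their coding sequences of 1104 bases each matched at 1014 bases (91.8%) with no gap, and the longest run without a mismatch was 140 bases. A short read from such a run cannot be given to 1 of the 2 genes. To show where reads can be told apart, the stretch of 90 coding bases with the most mismatches is printed from the GENCODE vM21 transcripts, 5′ to 3′, with the bases that differ between the genes in capitals. Within it, coding bases 35 to 124 (chr1:180893218-180893307 for Lefty2 and chr1:180935144-180935233 for Lefty1), 27 bases differ.
Lefty2: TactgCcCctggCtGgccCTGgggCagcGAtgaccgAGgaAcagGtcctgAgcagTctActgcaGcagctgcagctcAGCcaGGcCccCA
Lefty1: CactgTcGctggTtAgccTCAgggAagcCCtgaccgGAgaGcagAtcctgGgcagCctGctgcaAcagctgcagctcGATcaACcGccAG
Over the whole 2473-base Lefty2 transcript, 2142 of 2424 windows of 50 bases (88.4%) were found in the annotated transcripts of no other gene, and 281 were shared with Lefty1. Most of the transcript therefore identifies Lefty2, but the values of Lefty2 stay uncertain to the extent that reads from the shared windows were assigned to it.

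The depth of the 4 libraries, as reads in the listed genes, ranged between 31331595 and 34383760. Hoxb1, the targeted gene, had 137 and 167 normalised counts in the Hoxb1Mu libraries, against 682 and 617 in the WT libraries, so the targeted gene was lower in both libraries labelled mutant, though not at 0 (a normalised count is a read count divided by a size factor for its library). All 10 markers of the SHF and splanchnic mesoderm were present, the lowest being Osr1 with a mean of 226 normalised counts. The libraries did not have the same sex-linked transcripts. Xist, the RNA of the inactive X chromosome, had 111 and 5935 normalised counts in Hoxb1Mu 1 and 2, against 26992 and 32024 in WT 1 and 2. The Y-linked gene Ddx3y had 2205 and 0.943 normalised counts in Hoxb1Mu 1 and 2, against 2.12 and 3.85 in the WT libraries. Hoxb1Mu 1 thus stood apart as the library with Y-linked RNA. The near absence of Y-linked RNA from the other libraries puts the stated pooling in doubt, so how many embryos stand behind each of the 2 libraries of a genotype is uncertain. Results are given below with and without each library. No source used here says that the 2 libraries of a genotype came from separate litters, so their spread may be partly technical.

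Lefty2 was far lower in both Hoxb1Mu libraries. Normalised counts of Lefty2 were 33.8 and 84.9 in Hoxb1Mu 1 and 2, against 405 and 522 in WT 1 and 2. These values stood on 33 and 90 reads in Hoxb1Mu and on 381 and 543 reads in WT. Lefty2 averaged 59.4 ± 36.1 normalised counts in Hoxb1Mu and 464 ± 83.1 in WT (SD, n = 2 each). The groups did not overlap, and even the higher Hoxb1Mu library was well under the lower WT library. Between single libraries the WT value was 4.77 to 15.4 times the Hoxb1Mu value, over the 4 possible pairs. On log2(normalised count + 1), the scale of all log2 differences here, Lefty2 differed by -3.07 ± 0.42 (Hoxb1Mu minus WT, SE from limma, n = 2 each), or 8.42-fold. The difference was -2.42 without Hoxb1Mu 1 and -3.73 without Hoxb1Mu 2, and -3.26 and -2.89 without WT 1 and WT 2. In bulk tissue, fewer Lefty2-expressing cells and less Lefty2 RNA per cell cannot be told apart. The study gives a range of somite stages for these embryos and no stage per library. A difference in stage within that range cannot be told apart from genotype. Sex-linked RNA also differed, with Xist lower in both Hoxb1Mu libraries and Ddx3y high in Hoxb1Mu 1 alone. A difference in sex therefore cannot be told apart from genotype either.

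The libraries of a genotype also differed from each other in Lefty2. Hoxb1Mu 2 had 2.51 times the normalised count of Hoxb1Mu 1 (95% interval 1.67 to 3.86, exact binomial), and WT 2 had 1.29 times that of WT 1 (1.13 to 1.47). These intervals cover read counting only, since amplified reads carried no molecular identifiers. Over the 11887 genes averaging 100 or more normalised counts, the median fold between the 2 Hoxb1Mu libraries was 1.06, and 96 genes (0.808%) differed between them by as much as Lefty2. The Lefty2 level in the mutant therefore had a wide range, and it was under WT in each library.

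Among these 11887 genes, Lefty2 had the next to lowest log2 difference, after Xist (-5.17) and before Hoxb1 (-2.09). Xist is X-linked, so Lefty2 had the lowest log2 difference of the autosomal genes at this level of counts, which is how it was chosen. Cfc1 lay at rank 1027 from the lowest, and Tdgf1 at 11621.

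**Figure D1:**
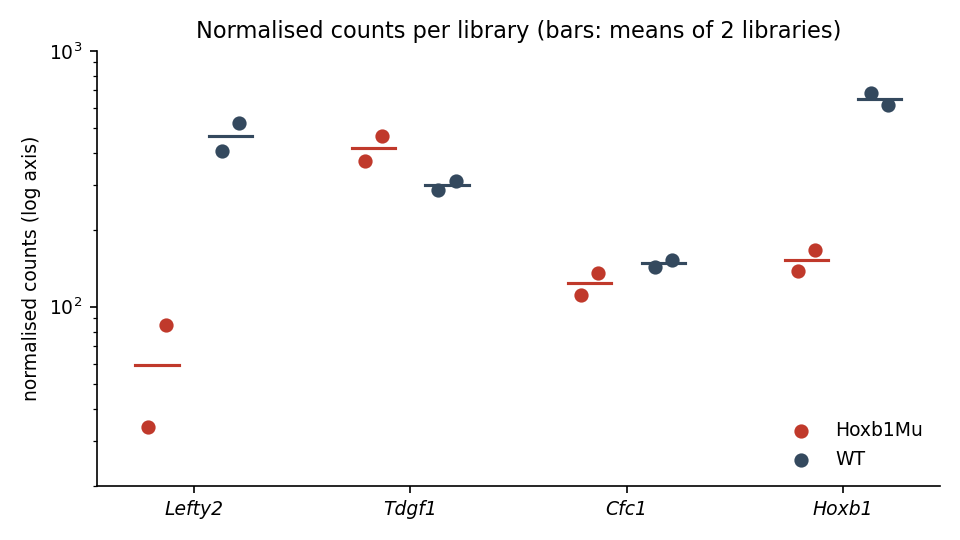
Normalised counts (log axis) of the 3 listed Nodal pathway genes and of Hoxb1 in each library; points are libraries (Hoxb1Mu red, WT dark blue) and bars the means of 2 libraries. Lefty2 sat at 33.8 and 84.9 in Hoxb1Mu, against 405 and 522 in WT, while Tdgf1 was at 370 and 465 against 287 and 310, and Cfc1 at 111 and 136 against 142 and 153.

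**Figure D2:**
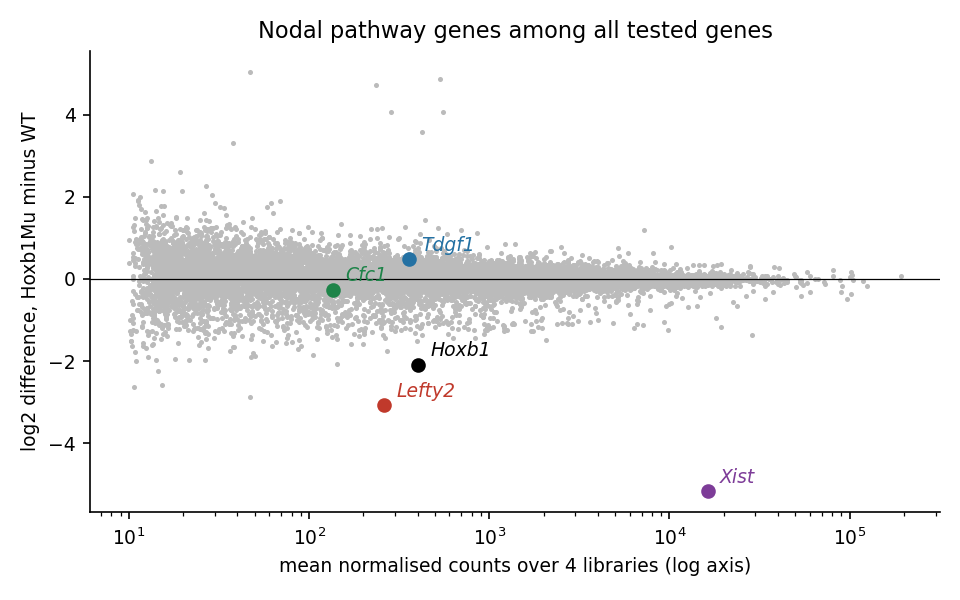
Log2 difference (Hoxb1Mu minus WT) of all 15760 tested genes against their mean normalised count (log axis), with 5 genes named. Lefty2 (-3.07) lay below Hoxb1 (-2.09), and Tdgf1 (0.48) and Cfc1 (-0.26) lay within the cloud of other genes.

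The co-receptor genes did not follow Lefty2. Tdgf1 (ENSMUSG00000032494; chr9:110939603-110946158, minus strand) encodes Cripto, the EGF-CFC protein of the epiblast and streak that is later also expressed in the outflow myocardium. Tdgf1 had 370 and 465 normalised counts in Hoxb1Mu, against 287 and 310 in WT, and was the only member with the Hoxb1Mu libraries on the higher side. Its log2 difference was 0.48 ± 0.14 (n = 2 each), 0.64 without Hoxb1Mu 1 and 0.31 without Hoxb1Mu 2. The 2 Hoxb1Mu libraries differed from each other by 1.26-fold (interval 1.09 to 1.44), close to the difference of 1.39-fold between the genotypes. Of its 1883 windows of 50 bases, 1647 (87.5%) were in no other annotated gene, and the other 236 were shared with the pseudogene Tdgf1-ps1.

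Cfc1 (ENSMUSG00000026124; chr1:34535648-34544313, plus strand) encodes Cryptic, the EGF-CFC protein of the lateral plate and node. Cfc1 had 111 and 136 normalised counts in Hoxb1Mu, against 142 and 153 in WT. The 4 values formed a nearly continuous series, and Hoxb1Mu 2 and WT 1 differed by 1.05-fold only. The log2 difference of Cfc1 was -0.26 ± 0.18 (n = 2 each), between -0.41 and -0.12 when 1 library was left out. Cfc1 overlaps the end of Prss40 on the opposite strand, a gene that is not among the listed ones, and 241 of its 991 windows of 50 bases lay in that gene. Whether reads were counted by strand is not given in the sources used here, so reads of Cfc1 and Prss40 cannot be told apart there.

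Per kilobase of annotated exon, Lefty2 was the lowest of the 3 genes in Hoxb1Mu and the highest in WT. In Hoxb1Mu, Tdgf1 was the most abundant with 141 and 177 normalised counts per kilobase. Cfc1 followed with 106 and 131, and Lefty2 was lowest with 13.0 and 32.5. In WT, Lefty2 was the most abundant with 155 and 200 normalised counts per kilobase, Cfc1 followed with 137 and 147, and Tdgf1 was lowest with 109 and 118. Neighbours in either order did not overlap in their 2 libraries, although the lower Lefty2 value in WT (155) was close to the higher Cfc1 value (147). Lengths were those of all annotated exons of a gene (2.61 kb for Lefty2, 2.62 kb for Tdgf1 and 1.04 kb for Cfc1). The order of Tdgf1 and Cfc1 in WT depended on this choice. With the length of 1 transcript per gene (1.93 kb for Tdgf1), chosen after seeing the data, Tdgf1 had 148 and 160 normalised counts per kilobase in WT, above Cfc1. Lefty2 stayed lowest in Hoxb1Mu (13.7 and 34.3) and highest in WT (164 and 211).

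In all 3 members, then, the Hoxb1Mu libraries lay on 1 side of the WT libraries, Lefty2 and Cfc1 on the lower side and Tdgf1 on the higher. Of all 15760 tested genes 53.5% had groups that did not overlap (27.1% lower and 26.4% higher in Hoxb1Mu), so such a split is common between these libraries. DESeq2 on the recovered reads called 1 of the 3 members, Lefty2, at an adjusted p under 0.05, in a comparison where it called 4.72% of genes (2.71% lower and 2.01% higher). The limma fit called 0 members and 0% of all genes, with 2935 of 15760 at an unadjusted p under 0.05, and the edgeR quasi-likelihood test also called 0% (2874 unadjusted). These calls use the contrast that chose the genes, and nothing is read from them.

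Genes around Lefty2 did not share its difference. Of 8 genes described here within 150 kb on either side (taken after their values were seen), 6 had log2 differences between -0.20 and -0.01. Sde2, 25.0 kb before Lefty2, had a log2 difference of -0.05 ± 0.05. Tmem63a, which follows Lefty1, had -0.11 ± 0.15. The antisense gene H3f3aos had 0.42 ± 0.36 at low counts. The farthest from 0 was the long non-coding RNA gene Gm17275, which overlaps H3f3a on the opposite strand and had 220 and 296 normalised counts in Hoxb1Mu, against 114 and 135 in WT (log2 difference 1.04 ± 0.19). DESeq2 called Gm17275 higher (adjusted p = 0.0123), and limma did not (adjusted p = 0.155). Reads of overlapping genes on opposite strands cannot be told apart without strand.

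**Figure D3:**
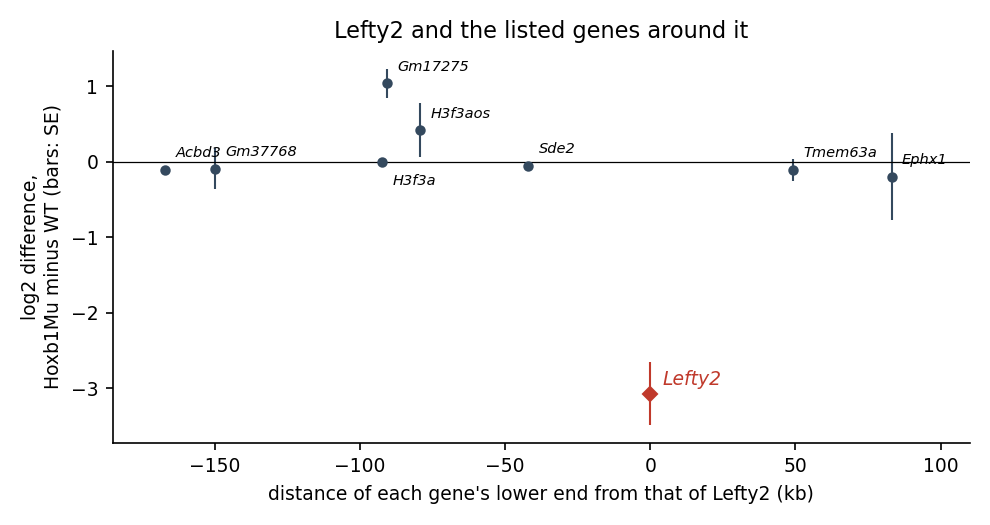
Log2 difference (Hoxb1Mu minus WT; bars, SE with 2 libraries per group) of Lefty2 and of 8 listed genes within 150 kb, against the distance in kb of each gene's lower end from that of Lefty2. Lefty2 (-3.07) stood alone, and of the others Gm17275 (1.04) was farthest from 0.

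The wider pathway was followed with 60 other genes of Nodal signalling and laterality, grouped by role, of which 50 had values. Most differed little: 44 of 50 (88.0%) had a log2 difference within 0.5 of 0, as had 87.8% of all tested genes. Their median log2 difference was 0.05, against 0.0006 for all tested genes, with 21 lower and 29 higher. limma called 0 of the 50 (11 at an unadjusted p under 0.05, or 22.0%, against 18.6% of all genes) and edgeR 0. DESeq2 gave 38 of them an adjusted p and called 0 higher and 1 lower, against 2.01% and 2.71% of all genes.

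The 1 gene called was Furin, which encodes a proprotein convertase that cleaves Nodal and many other precursors. Furin had 2403 and 2498 normalised counts in Hoxb1Mu, against 3113 and 3024 in WT, a log2 difference of -0.32 ± 0.05 (DESeq2 adjusted p = 0.00251, limma adjusted p = 0.153). DESeq2 did not call it in any of the 4 fits without 1 library (adjusted p from 0.218 to 0.454), which had fewer libraries to estimate the spread, while its log2 difference in them lay between -0.35 and -0.30. Pcsk6, the other convertase of Nodal, had a log2 difference of 0.29 ± 0.16 and was not called.

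Receptors of Nodal were nearly level. The type I receptor gene Acvr1b had 1832 and 2010 normalised counts in Hoxb1Mu, against 1815 and 1853 in WT. The type II receptor genes Acvr2a and Acvr2b had log2 differences of 0.0038 ± 0.079 and -0.02 ± 0.09. None of the 3 was called by limma or DESeq2. Of other ligands of the family, only the activin subunit gene Inhbb had values, with 28.7 and 3.77 normalised counts in Hoxb1Mu, against 6.37 and 5.77 in WT, so 1 library decided its mean.

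Among the other antagonists, Cer1 (named after its values were seen) came closest to Lefty2. Cer1 encodes Cerberus-like, a secreted protein that binds Nodal and is made in the anterior endoderm and in nascent mesoderm. It had 16.4 and 17.9 normalised counts in Hoxb1Mu, against 41.4 and 44.2 in WT. The groups were well apart, with a log2 difference of -1.27 ± 0.30, but the counts were low. DESeq2 gave Cer1 no adjusted p, and limma did not call it (adjusted p = 0.158). Dand5, the Cerberus relative that acts on the right side of the node, had 52.3 and 55.7 normalised counts in Hoxb1Mu, against 40.4 and 67.3 in WT. Fst, the gene of the activin antagonist follistatin, had a log2 difference of 0.23 ± 0.07 and was not called.

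Within the cell, the Smad genes were close to level, and Foxh1 showed the largest difference of the 10 measured genes. Foxh1 encodes the forkhead partner of Smad2 at Nodal target genes. It had 1055 and 1427 normalised counts in Hoxb1Mu, against 1571 and 1779 in WT (log2 difference -0.45 ± 0.15, DESeq2 adjusted p = 0.0855, limma adjusted p = 0.213). Hoxb1Mu 1 was the lowest library, as it was for Lefty2. With Hoxb1Mu 2 left out, and in no other fit, DESeq2 called Foxh1 lower (adjusted p = 0.0104), and its log2 difference was -0.23 without Hoxb1Mu 1. Smad2 had a log2 difference of -0.11 ± 0.05 and Tgif1, a co-repressor of Smad proteins, 0.16 ± 0.06. Neither was called.

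Of 4 other measured target genes of Nodal signalling, 3 were lower and 1 higher, with a median log2 difference of -0.20, and limma, edgeR and DESeq2 called 0 of them (0 at an unadjusted limma p under 0.05). Lhx1, a LIM homeobox gene, had 206 and 218 normalised counts in Hoxb1Mu, against 241 and 282 in WT. Its groups did not overlap, with a log2 difference of -0.30 ± 0.14 (DESeq2 adjusted p = 0.583, limma adjusted p = 0.308). Left and right sides of the embryo were not separated, so left and right levels cannot be told apart in these values.

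Genes of the node and of its motile and sensory cilia, which start the left-sided signal, numbered 19 with values. Of these, 7 were lower and 12 higher, and 0 were called by limma, edgeR or DESeq2 (4, or 21.1%, at an unadjusted limma p under 0.05, against 18.6% of all genes). The groups did not overlap for 9 genes on the higher side and 1 on the lower, beside 26.4% and 27.1% of all genes. Ccdc39, needed to assemble motile cilia, had 185 and 184 normalised counts in Hoxb1Mu, against 130 and 138 in WT (log2 difference 0.46 ± 0.14). Ccdc40, which acts with it, had 0.25 ± 0.11, and the kinesin gene Kif3b had -0.19 ± 0.05. The largest values of the group, 0.90 for the dynein assembly gene Dnaaf3 and 0.96 for the axonemal dynein gene Dnah5 (both named after their values were seen), came from means of under 100 normalised counts.

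Of 8 other laterality genes, 3 were lower and 5 higher, and limma, edgeR and DESeq2 called 0 of them (2, or 25.0%, at an unadjusted limma p under 0.05, against 18.6% of all genes). Dll1, the Notch ligand that acts upstream of Nodal at the node, had 498 and 490 normalised counts in Hoxb1Mu, against 346 and 358 in WT (log2 difference 0.49 ± 0.09, DESeq2 adjusted p = 0.0743, limma adjusted p = 0.155). Cited2, a co-activator needed for left-right patterning, had -0.22 ± 0.10 and was not called.

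**Figure D4:**
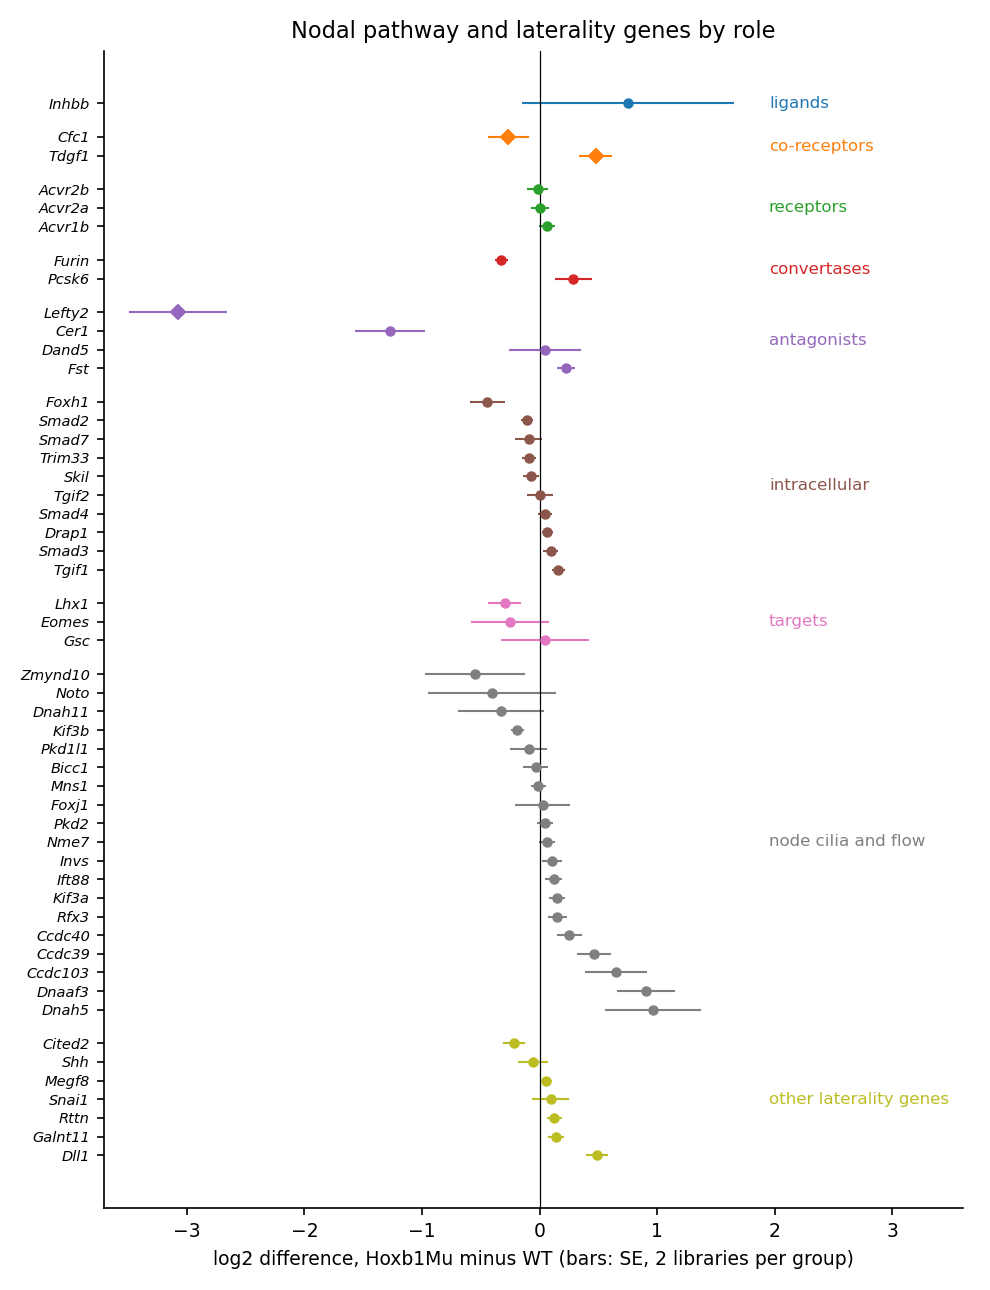
Log2 difference (Hoxb1Mu minus WT; bars, SE with 2 libraries per group) of 51 listed Nodal pathway and laterality genes, by role; diamonds are Lefty2, Tdgf1 and Cfc1. Lefty2 (-3.07) and Cer1 (-1.27) were the lowest, and receptors and Smad genes stayed close to 0.

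Cell type markers were compared between the same libraries, since Nodal pathway genes are expressed in several tissues near the SHF. Of the 10 SHF and splanchnic mesoderm markers, 5 were lower and 5 higher, with a median log2 difference of -0.004. DESeq2 called 1 of the 10 lower (Hoxb1, the targeted gene) and 1 higher (Tbx1), against 2.71% and 2.01% of all genes. Tbx1 had a log2 difference of 0.50 ± 0.10 (DESeq2 adjusted p = 0.0135, limma adjusted p = 0.155). The 8 markers of lateral plate mesoderm, the tissue of Lefty2, summed to 8579 and 8033 normalised counts in Hoxb1Mu, against 9145 and 10226 in WT, with 4 lower, 4 higher and a median log2 difference of -0.15. Of the 7 with an adjusted p, DESeq2 called 1 lower, against 2.71% of all genes. It was Bmp4, a BMP ligand gene (log2 difference -0.37 ± 0.07, adjusted p = 0.0379, limma adjusted p = 0.155). The marker with the largest difference was Hand1, with 2287 and 1462 normalised counts in Hoxb1Mu, against 2798 and 3010 in WT (-0.67 ± 0.20), which neither tool called. The 8 node, notochord and floor plate markers summed to 1928 and 1893 in Hoxb1Mu, against 2144 and 2024 in WT. Of the 5 with an adjusted p, DESeq2 called 0, against 4.72% of all genes. The part of any of these tissues in the value of Lefty2 was not tested.

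Other marker lists differed more. All 10 yolk sac endoderm markers were lower, and they summed to 74680 and 33999 normalised counts in Hoxb1Mu, against 122030 and 113790 in WT. On average over the list, Hoxb1Mu 1 lay at -0.60 and Hoxb1Mu 2 at -1.81 from the WT mean on the log2 scale. DESeq2 called 0 of the 9 with an adjusted p, against 4.72% of all genes. Both limma and edgeR called 0, as they did over all genes. An unadjusted limma p under 0.05 was found for 9 of the 10, against 18.6% of all genes. Lefty2 lay lower in Hoxb1Mu 1 than in Hoxb1Mu 2. The part of these cells in its value was not tested. All 10 cardiomyocyte markers were higher, with sums of 74402 and 87050 in Hoxb1Mu, against 56996 and 56728 in WT, and DESeq2 called 9 of them higher, against 2.01% of all genes. The part of cardiomyocytes in the value of Tdgf1 was not tested. No marker of any list was at 0 in any library.

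Epiblast, streak and tail bud genes, which include other sites of Nodal pathway expression, split in both directions. Of 12 markers 10 had values, with 5 lower and 5 higher, and their sums were 1758 and 1886 in Hoxb1Mu, against 2327 and 2571 in WT. Of the 5 with an adjusted p, DESeq2 called 2 lower and 0 higher, against 2.71% and 2.01% of all genes. Pou5f1, the pluripotency gene of the epiblast, had 151 and 199 normalised counts in Hoxb1Mu, against 402 and 442 in WT, and DESeq2 called it lower (log2 difference -1.28 ± 0.17, adjusted p = 1.90e-05, limma adjusted p = 0.142). L1td1, a pluripotency-associated RNA-binding protein gene, was also called lower by DESeq2 (-0.92 ± 0.22, adjusted p = 0.00294, limma adjusted p = 0.16). Among the higher ones, Wnt3a, a WNT ligand gene of the tail bud, had 220 and 211 normalised counts in Hoxb1Mu, against 172 and 144 in WT, and was not called (0.45 ± 0.15). Fgf4, a growth factor gene of the streak, had 106 and 125 in Hoxb1Mu, against 76.5 and 71.2 in WT (0.63 ± 0.19), and limma did not call it. Cdx4, a homeobox gene of the tail bud, had 3.08 and 144 normalised counts in Hoxb1Mu 1 and 2, against 1.06 and 1.92 in WT, so 1 library alone held most of its reads. The part of these tissues in the value of Lefty2 was not tested.

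**Figure D5:**
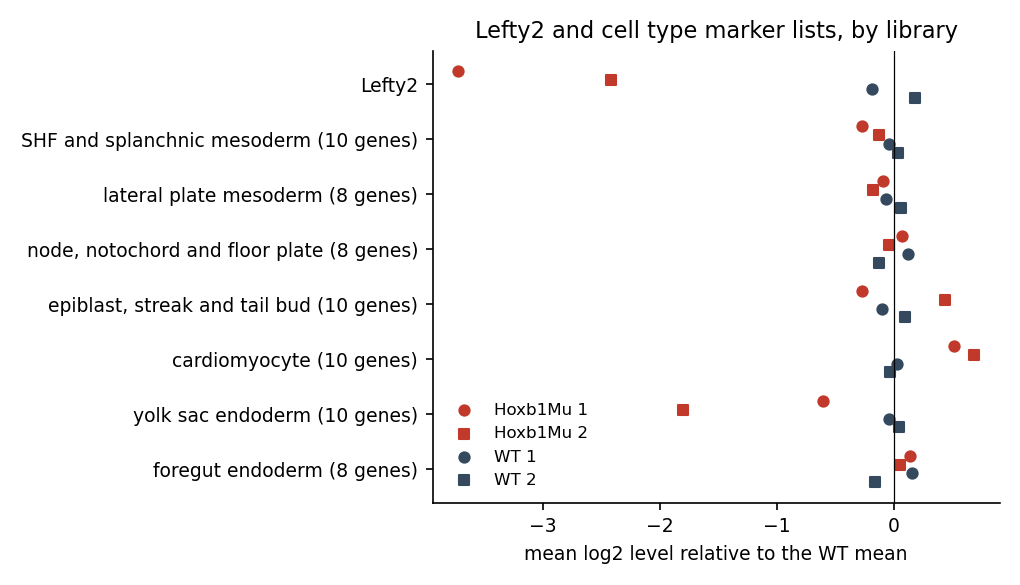
Mean log2 level of Lefty2 and of 7 cell type marker lists in each library, relative to the mean of the 2 WT libraries (Hoxb1Mu red, WT dark blue; circles replicate 1, squares replicate 2). Yolk sac endoderm markers were lowest in Hoxb1Mu 2 (-1.81), and Lefty2 was lowest in Hoxb1Mu 1. The mean of the lateral plate markers was -0.09 and -0.18 in Hoxb1Mu 1 and 2, with 4 markers lower and 4 higher.

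To find genes that resembled each member, the 4 values of every gene averaging 50 or more normalised counts (13028 genes) were centred on the log2 scale, and the Euclidean distance to the member was taken. This is a description over 4 libraries. For Lefty2 the 5 nearest genes were Hoxb1 (distance 1.27), Rsad1 (1.70), Pou5f1 (1.91), Wnt8a (1.93) and H2-Q2 (2.01). A gene that is level in all libraries has a distance of 3.22 from Lefty2. As Lefty2 was chosen for its large difference, the size of these distances follows from that choice. All 5 were themselves lower in Hoxb1Mu, with log2 differences from -2.09 (Hoxb1) to -1.21 (Wnt8a). Rsad1 lies on chromosome 11 with Hoxb1, and H2-Q2 on chromosome 17 with Pou5f1. Whether a shared chromosome has a part in these values was not tested. Wnt8a, a WNT ligand gene of the early streak, had 134 and 211 normalised counts in Hoxb1Mu, against 333 and 458 in WT, with Hoxb1Mu 1 under Hoxb1Mu 2 and WT 1 under WT 2 as for Lefty2. H2-Q2 belongs to a family of near-identical histocompatibility genes, so its counts are uncertain.

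For Tdgf1 the nearest genes were Arhgef4 (distance 0.0271), Tcea2 (0.0354), Sp9 (0.0401), Ppp1r3b (0.0450) and 2700097O09Rik (0.0494). For Cfc1 they included Nxpe4 (0.0306), Pura (0.0412), Cox11 (0.0450) and Cited2 (0.0481). Each of these distances is small against that of a level gene (0.54 for Tdgf1 and 0.34 for Cfc1). The nearest of 13028 genes were taken over only 4 values, so small distances follow from the search, and nothing is read from their size.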

How the data were processed

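RNA-seq values of 4 libraries were used (2 Hoxb1Mu, 2 WT). Groups came from the genotype labels, and replicate numbers only name libraries. Per the submitters' processing notes and the methods of the study, STAR 2.5.2 placed the reads on mm10, and they were counted per gene with HTSeq and normalised with DESeq2 in R 3.3.4, genes without expression were removed and a detection threshold was set from intergenic reads. The same methods also describe quantification with RSEM on an Ensembl genebuild and tests with edgeR, and do not say which path gave which table. For the HTSeq counts, the annotation release and the strand setting are not given in the sources used here. Whether the threshold removed genes from the table is not stated. The table the authors deposited holds a normalised signal per library (read counts divided by a size factor) and its mean. The log2 fold change, the score (Wald statistic) and the p-value columns that the authors deposited are their own comparison and were not used. The symbols of 13 genes had become dates and were tested but not named.

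All values (100%) were whole multiples of a step of their library within 0.001 of a read, which gave back read counts. The main test was limma-trend (limma 3.58.1, R 4.3.3) on log2 of the normalised count plus 1, over 15760 genes averaging 10 or more (43 were left out), 2-sided, with Benjamini-Hochberg adjustment over all of them. DESeq2 1.42.0 ran on the recovered reads of the same genes (3972 without an adjusted p) and edgeR 4.0.16 on the 15732 that its filter kept. The fits were tested on simulated data. Alternatives were pseudocounts of 0.5 and 5, no filter, a mean of at least 50, equal library totals, TMM factors and leaving out each library. Positions, lengths and transcripts came from GENCODE vM21, matched by symbol for 15360 genes (97.2%).

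The members and lists were chosen with earlier results of these data known. The text names the members, Hoxb1, every pathway gene called by limma or DESeq2, the 3 of each role group with the largest difference at a mean of at least 100, and the 5 genes nearest to each member. Others are named as chosen after seeing values, or as markers and signs of sex. Some items that these rules pick are not reported here; counts over whole lists include them.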

Additional observations from a re-analysis of the deposited data

How the results depend on the processing

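The log2 differences of Lefty2, Tdgf1 and Cfc1 kept their direction under every alternative run (other pseudocounts and filters, equal library totals, edgeR, DESeq2 and each library left out). The groups did not overlap for any of these genes, so leaving out a library could not have reversed a direction. Lefty2 was also chosen from this contrast, so nothing is read from its kept direction. With 1 library left out they ranged from -3.73 to -2.42 for Lefty2, from 0.31 to 0.64 for Tdgf1 and from -0.41 to -0.12 for Cfc1. The number of genes called over all genes was less stable: 0 with limma against 556 with DESeq2 on the recovered reads, 0 to 941 for limma and 71 to 589 for DESeq2 with 1 library left out. Leaving out Hoxb1Mu 1 gave limma 941 calls, leaving out Hoxb1Mu 2 gave 37, and leaving out a WT library gave 0. DESeq2 made 118 calls with Hoxb1Mu 2 left out, 92 with WT 1 and 71 with WT 2 left out. In these fits the lone library of a group is assumed to vary like the others. Of the 50 other pathway genes limma called 0 and DESeq2 1, and with 1 library left out DESeq2 called 0 to 2 and limma 0. Over the 17 pathway genes that the naming rule picked, 306 of 313 values under alternatives stayed on their side of the threshold, 4 lost the call (Furin, each with 1 library left out) and 3 gained it (among them Furin with DESeq2 and Foxh1 without Hoxb1Mu 2). In its main fit and in most alternatives limma called 0 of all genes, so staying uncalled there tells little about these 17 genes. The gain of Furin with DESeq2 is the DESeq2 call given above, counted again as an alternative to limma. The cause of these changes was not tested. No paired analysis was possible because the labels give the groups no shared replicate numbers. Depth limits Cer1, Inhbb and the Hoxb1Mu values of Lefty2, which rest on few reads.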
